A study of Homo sapiens with 18 samples.

Results

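The 33 genes described here encode enzymes that add or remove phosphates on the inositol ring of phosphatidylinositol lipids, together with partner subunits. They were found by matching their symbols to the deposited expression table, and all 33 were among its 37096 named genes. All 33 also passed the filter on low values and belonged to the 17755 genes tested. The list leaves out the class 3 PI3K complex, whose catalytic subunit VPS34 is the target of the drug used.

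Poly-A RNA was sequenced from HEK293T cells, a human embryonic kidney line labelled WT, in 18 libraries that formed 6 groups of 3. Cells were expanded in 15 cm plates, moved to 6-well plates and transfected with the empty pLEX vector or with MethionaseNLS, a construct for a methionase, an enzyme that breaks down methionine; NLS is the usual abbreviation of a nuclear localisation signal. The 6 groups were empty vector or methionase for 12 h in DMSO, either construct for 24 h in DMSO, and either construct for 24 h with Vps34-IN1 at 5 µM for 12 h. Below, "vector" and "methionase" name the construct, and DMSO is the vehicle. No group with an inactive methionase was analysed here, so the activity of the enzyme and the presence of a foreign protein cannot be told apart. The labels do not give the length of the DMSO exposure in each group, so drug and vehicle time, and the 2 transfection times and vehicle time, cannot be told apart. They also do not say that replicates were separate cultures, so the tests take as error only the differences among these libraries, which may be technical. All libraries came from 1 line and carried 1 batch label.

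Phosphoinositides are minor membrane lipids that mark the identity of membranes. Kinases and phosphatases convert one form into another: PI4P marks the Golgi and plasma membrane, PI(4,5)P2 the plasma membrane, and PI3P the early endosome and autophagosome, while PI(3,4,5)P3 is the signal made by class I PI3K after growth factor stimulation. VPS34 makes PI3P, class II PI3K can make PI3P and PI(3,4)P2, myotubularins remove PI3P, and PIKFYVE converts it to PI(3,5)P2.

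The promoters of 4 members are shown because these genes had the most negative (PIK3CA, MTMR3) and the most positive (PIP5K1C, PIK3C2A) called methionase-by-drug interactions described further on. Each runs 5′ to 3′ on the gene's own strand, from 250 bases before to 50 bases after the RefSeq start site on GRCh38.p14: chr3:179148107-179148406 (+ strand), chr22:29882924-29883223 (+ strand), chr19:3700419-3700718 (- strand) and chr11:17207937-17208236 (- strand). Capitals mark matches, on either strand, to any of the motifs listed after the sequences.
PIK3CA: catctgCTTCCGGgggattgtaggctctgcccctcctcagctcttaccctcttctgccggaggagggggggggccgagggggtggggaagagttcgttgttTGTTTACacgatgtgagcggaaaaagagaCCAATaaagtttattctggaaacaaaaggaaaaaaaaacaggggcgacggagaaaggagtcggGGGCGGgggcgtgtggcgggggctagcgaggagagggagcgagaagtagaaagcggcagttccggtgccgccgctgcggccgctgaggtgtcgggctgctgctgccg
MTMR3: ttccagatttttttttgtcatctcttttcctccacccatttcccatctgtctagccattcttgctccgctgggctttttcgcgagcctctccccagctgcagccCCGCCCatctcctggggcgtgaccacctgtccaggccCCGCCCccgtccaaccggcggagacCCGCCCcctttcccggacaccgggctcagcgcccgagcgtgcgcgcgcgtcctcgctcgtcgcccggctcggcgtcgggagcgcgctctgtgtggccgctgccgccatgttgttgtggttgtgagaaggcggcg
PIP5K1C: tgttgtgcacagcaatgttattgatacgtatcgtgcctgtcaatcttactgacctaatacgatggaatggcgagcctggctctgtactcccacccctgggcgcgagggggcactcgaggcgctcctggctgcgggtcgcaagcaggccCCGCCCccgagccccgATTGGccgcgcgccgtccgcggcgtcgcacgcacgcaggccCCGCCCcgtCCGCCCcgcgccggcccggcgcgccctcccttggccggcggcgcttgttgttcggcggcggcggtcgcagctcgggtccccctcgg
PIK3C2A: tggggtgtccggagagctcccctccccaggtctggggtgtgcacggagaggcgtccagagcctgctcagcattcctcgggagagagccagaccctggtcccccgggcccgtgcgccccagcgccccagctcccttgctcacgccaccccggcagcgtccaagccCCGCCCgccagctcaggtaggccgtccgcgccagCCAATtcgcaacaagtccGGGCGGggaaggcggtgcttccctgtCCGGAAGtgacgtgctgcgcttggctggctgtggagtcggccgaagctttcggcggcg

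RefSeq held such a window for 32 of the 33 members, and 9 motifs, chosen after the expression values were known, were searched on both strands. The GC box GGGCGG was in 28 of the 32 windows (87.5%), against 44.6% of all 27305 promoters of the same length. The E-box CACGTG, which bHLH factors bind, was in 6 windows (18.8% against 7.4%): those of PIP5K1A, PI4K2B, PIP4K2C, VAC14, PI4KA and MTM1. The ETS motif CCGGAAG was also in 6 (18.8% against 10.7%) and the CCAAT box in 11 (34.4% against 35.7%). The TATA box letters TATAAA (12.0% of all promoters), the AP-1 letters TGANTCA (7.8%) and the CRE letters TGACGTCA (2.0%) were in 0 of the 32 windows. The NRF1 motif was in the PIP5K1A window (3.1% against 1.4%), and the FOXO letters GTAAACA in the PIK3CA window (3.1% against 3.4%). In the sequences printed above, the PIK3CA window holds an ETS match, that FOXO match, a CCAAT box and a GC box, the MTMR3 window 3 GC boxes, the PIP5K1C window 3 GC boxes and a CCAAT box, and the PIK3C2A window 2 GC boxes, a CCAAT box and an ETS match. These matches are a description of letters and not of binding. The 27305 promoters were not limited to genes tested here, whereas all members were tested. The contrasts can therefore not be read as particular to these members.

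Total reads per library ranged from 18278586 to 20825232. The HEK293T markers LIN28B (1458 to 2349 normalised reads), NEFM (5935 to 17601), NEFL (2216 to 3664) and IGF2BP1 (5101 to 8269) were high and PAX2 was at 99.1 to 190.3, while SOX11 did not exceed 4.1. Of the markers of other cell types, COL1A1 (402.5 to 672) was detected, and CD3E, PECAM1, CDH5, VWF, APOA1, COL1A2 and DCN did not exceed 6.7 reads and ALB did not exceed 20.3. PTPRC and HBB were not analysed here. The share of reads from mitochondrial rRNA moved with the groups: it was 0.240% ± 0.0452 in vector 12 h, 0.355% ± 0.0295 in methionase 12 h, 0.548% ± 0.0956 in vector 24 h, 1.49% ± 0.536 in methionase 24 h, 1.202% ± 0.193 in vector with the drug and 2.18% ± 0.288 in methionase with the drug (SD, n = 3). Its part in the results was not tested. In bulk RNA, fewer cells that express a gene and less RNA per cell cannot be told apart. Normalised reads are read counts divided by a library's size factor, and differences are log2 differences of the deposited variance-stabilised values, which understate changes of genes with few reads.

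Between genes, levels were compared as normalised reads per kb of exon. Opposite-strand exons overlap 65.3% of the exon length of MTMR3 and 35.8% of that of PIK3CA. How the counting treated reads there is not given. The places of these 2 genes in the order, and shares and sums per kb that include them, are therefore uncertain. In vector cells at 24 h the highest was PIP5K1A, a kinase that makes PI(4,5)P2 from PI4P, at 745 ± 2.19 (SD, n = 3 here and below). PIK3R2, the p85β regulatory subunit of class I PI3K, followed at 595 ± 35.4, then the Golgi PI 4-kinase PI4KB at 510.3 ± 9.12 and INPPL1, the SHIP2 phosphatase of PI(3,4,5)P3, at 474 ± 7.98. In these 4 no library of a gene overlapped those of the next gene in the order. Of the class I catalytic subunits, PIK3CD (65.0 ± 7.32) and PIK3CB (62.5 ± 6.13) overlapped each other and lay above PIK3CA (31.9 ± 1.98). Among myotubularins MTMR1 was highest (279.6 ± 6.11), MTMR2 (219 ± 13.3) and MTMR4 (207 ± 7.56) overlapped, and MTM1, the founding member of the family, was lowest (79.8 ± 7.70). The lowest members were PIP5K1B (14.1 ± 2.38), PIK3R3 (7.21 ± 0.573) and PIP4K2B (1.75 ± 0.741). PIP4K2B had between 4.1 and 19.7 normalised reads in any library, and a difference in it that did not pass a test below was not detectable at this depth.

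**Figure D1:**
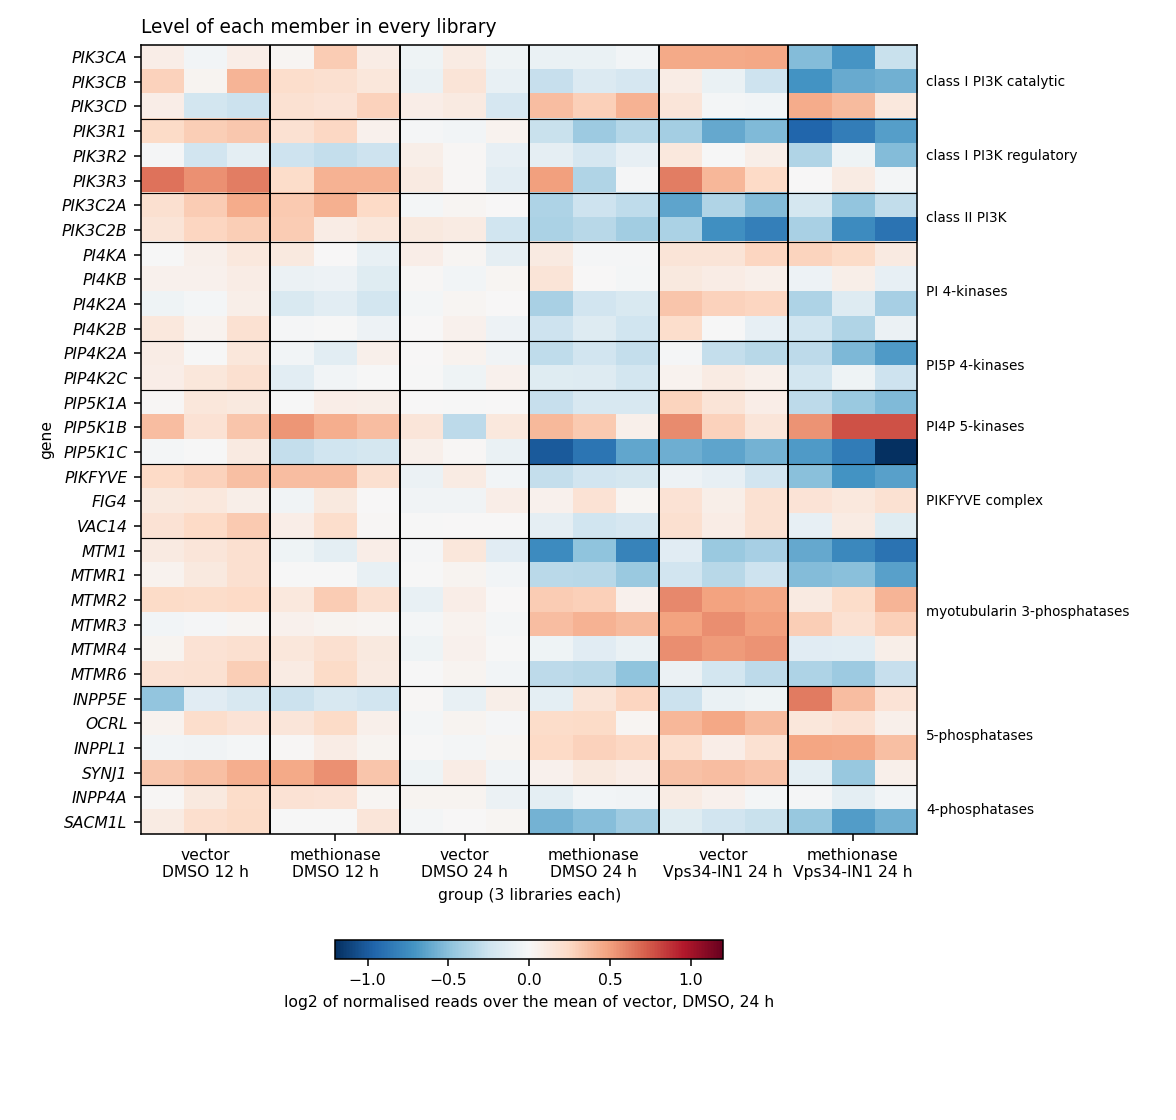
Level of 32 members in each of the 18 libraries, as log2 of normalised reads over the mean of vector cells in DMSO at 24 h (colour), with genes as rows grouped by role and libraries as columns grouped by condition; PIP4K2B is left out because of its few reads. PIK3CA and MTMR4 are highest in the 3 vector libraries with Vps34-IN1, and PIP5K1C is low in the methionase libraries at 24 h and in all libraries with the drug.

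At 12 h, with methionase set against the empty vector in DMSO, no member passed the test, against 2.17% of all genes tested (0.681% higher and 1.49% lower; limma, Benjamini-Hochberg adjusted p below 0.05 over all 17755 genes, as for every call below). At an unadjusted p below 0.05 there were 6 members, and limma voom on the recovered reads also called 0. The members' median log2 difference was -0.05, beside -0.01 over all genes tested. PIK3CD, the p110δ catalytic subunit, had the largest positive difference, 0.29 ± 0.09 (SE; adjusted p = 0.0811). It counted 433, 354 and 344 normalised reads in vector and 466, 461 and 499 in methionase libraries, groups that did not overlap. Without vector 12 h replicate 1 this difference passed the test (adjusted p = 0.0430). PIP5K1C, the kinase that supplies PI(4,5)P2 at synapses and focal adhesions, had the most negative difference, -0.25 ± 0.09 (adjusted p = 0.157). Its vector libraries held 829.5, 843 and 908 reads and its methionase libraries 691, 715 and 728, again without overlap. In all, 13 members had groups that did not overlap, against 29.5% of all genes.

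At 24 h in DMSO, methionase cells differed from vector cells in 19 of the 33 members, 4 higher and 15 lower, against 39.2% of all genes tested (18.1% higher and 21.1% lower). Among transcripts for enzymes of PI4P and PI(4,5)P2, 2 of the 4 PI 4-kinases, 2 of the 3 PI4P 5-kinases and the PI4P phosphatase SACM1L were lower. PI4KA, PI4KB, PIP5K1B and the 5-phosphatases OCRL, SYNJ1 and INPP5E did not pass the test. Myotubularins split, with 3 lower and 2 higher, and both class II PI3K genes were lower. The members' median difference was -0.13, beside 0.01 over all genes. With quantile normalization 5 members were higher and 10 lower. In 20 members the 2 groups did not overlap, against 48.6% of all genes tested.

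PIP5K1C showed the largest fall. It counted 880.4, 853 and 802 reads in the vector libraries and 419, 459 and 549 in the methionase libraries. Every methionase library lay far below every vector library, a difference of -0.74 ± 0.09 (adjusted p = 1.13e-06). PIP5K1A, the most abundant 5-kinase, fell less (-0.21 ± 0.06), from 4024 ± 11.8 to 3459 ± 119, and PIP5K1B, at 69.3 ± 11.7 and 83.0 ± 9.78, did not pass the test (0.15 ± 0.09). Summed per kb, the 3 PI4P 5-kinases went from 880.0 ± 6.31 to 725 ± 28.0. SACM1L, the endoplasmic reticulum phosphatase that removes PI4P, counted 1290.2, 1310.3 and 1328 reads in vector and 885, 921 and 972 in methionase libraries. The groups did not overlap and the difference was -0.47 ± 0.06 (adjusted p = 3.07e-06). The type II PI 4-kinases of endosomes and Golgi, PI4K2A (-0.25 ± 0.07) and PI4K2B (-0.19 ± 0.07), were lower. The type III kinases PI4KA (0.03 ± 0.07) and PI4KB (0.04 ± 0.06) did not pass the test. Of the PI5P 4-kinases, which make PI(4,5)P2 from PI5P, PIP4K2A (-0.25 ± 0.08) and PIP4K2C (-0.16 ± 0.06) were lower.

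Of the 6 myotubularins, MTM1 counted 318, 352 and 291 reads in vector and 190.3, 229 and 184 in methionase libraries, without overlap and with a difference of -0.52 ± 0.08 (adjusted p = 3.39e-05). Its close relative MTMR1, which lies next to it on the X chromosome, went from 1765, 1808 and 1731 to 1415, 1399 and 1299 (-0.35 ± 0.06, adjusted p = 5.20e-05). MTMR6 went from 532, 546 and 522 to 429, 423 and 383 (-0.32 ± 0.07, adjusted p = 0.000679). In these 3 genes no methionase library reached a vector library. MTMR3, a PI3P phosphatase linked to autophagosome size, moved the other way, from 1235, 1295 and 1233 to 1622, 1677 and 1627 (0.37 ± 0.05, adjusted p = 6.79e-06). MTMR2, mutated in a Charcot-Marie-Tooth neuropathy, counted 1258, 1421 and 1343 and 1658, 1633 and 1391, groups that overlapped (0.20 ± 0.07, adjusted p = 0.0312). MTMR4 did not pass the test (-0.09 ± 0.06). On the PI(3,5)P2 side, the kinase PIKFYVE (-0.22 ± 0.07) and its scaffold VAC14 (-0.17 ± 0.07) were lower, and the phosphatase FIG4 (0.08 ± 0.06) did not pass the test.

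In the class I PI3K group, PIK3CD rose from 433, 443 and 358 to 533, 501 and 550.3 without overlap (0.31 ± 0.09, adjusted p = 0.00603). The p85α gene PIK3R1 fell from 346 ± 9.53 to 272 ± 16.3 (-0.28 ± 0.07), and PIK3CA, PIK3CB, PIK3R2 and PIK3R3 did not pass the test. INPPL1 rose from 3085, 3039.9 and 3144 to 3649, 3746 and 3679, with every methionase library above every vector library (0.25 ± 0.05, adjusted p = 0.000546). The other 5-phosphatases OCRL (0.15 ± 0.06), SYNJ1 (0.07 ± 0.08) and INPP5E (0.09 ± 0.10), and the PI(3,4)P2 4-phosphatase INPP4A (-0.06 ± 0.06), did not pass it. The class II kinases PIK3C2A (-0.29 ± 0.08) and PIK3C2B (-0.32 ± 0.10) were lower.

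Of these 19 calls, 12 held in each of the 8 alternative fits and without each of the 6 libraries in turn. PIK3CD was not called without vector 24 h replicate 3 (adjusted p = 0.0534), PIKFYVE without vector replicate 2 (0.0848) or with quantile normalization (0.0872), PIK3C2B without vector replicates 1 (0.0795) or 2 (0.0712), and MTMR2, PI4K2B, PIP4K2C and VAC14 without 4, 4, 4 and 5 of the 6 libraries (adjusted p from 0.0590 to 0.149). With quantile normalization PI4K2B, PIP4K2C, VAC14 and PIK3C2B also missed the threshold (adjusted p from 0.0503 to 0.185), the differences of PIP4K2C (-0.10), VAC14 (-0.11) and PIKFYVE (-0.14) shrank by over 1.5 times, and OCRL passed it (0.0135). The interaction with time, which asks whether the methionase difference at 24 h was unlike that at 12 h, was called for 4 members, against 11.7% of all genes (5.33% positive and 6.33% negative): PIP5K1C (-0.49 ± 0.13, adjusted p = 0.0164), SACM1L (-0.34 ± 0.09, adjusted p = 0.0138), MTM1 (-0.37 ± 0.12, adjusted p = 0.0430) and MTMR3 (0.33 ± 0.07, adjusted p = 0.00596). The MTM1 interaction was lost without each of 9 libraries in turn (adjusted p from 0.0595 to 0.127).

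In vector cells at 24 h, the VPS34 inhibitor was set against DMSO, and 18 members passed the test, 10 higher and 8 lower, against 40.1% of all genes tested (20.2% higher and 19.9% lower). This comparison shares its vector DMSO libraries with the methionase comparison above. The groups did not overlap in 21 members, against 52.4% of all genes tested. The PI3P phosphatases MTMR2, MTMR3 and MTMR4 and the PI(4,5)P2 phosphatases OCRL and SYNJ1 rose, and both class II PI3K genes fell. The members' median difference was 0.06, beside 0.00 over all genes tested; with quantile normalization 9 members were higher and 7 lower, and with equal library medians 14 and 6.

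MTMR4, a myotubularin of endosomes, counted 1495, 1608 and 1545 reads in DMSO and 2276, 2203 and 2244 with the drug (0.51 ± 0.06, adjusted p = 4.95e-07). MTMR2 rose to 1999, 1878 and 1852 (0.49 ± 0.07, adjusted p = 1.42e-05) and MTMR3 to 1752, 1847 and 1769 (0.49 ± 0.05, adjusted p = 1.38e-07). In all 3 genes every drug library lay above every DMSO library. MTMR1 fell to 1511, 1405 and 1488 (-0.26 ± 0.06, adjusted p = 0.00128), again without overlap. MTM1 (-0.25 ± 0.08) and MTMR6 (-0.17 ± 0.07) were also lower. Summed per kb, the 6 myotubularins went from 1005 ± 36.1 to 1169 ± 33.1.

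The class II kinases moved down together. PIK3C2A, which makes PI3P and PI(3,4)P2 in endocytosis and at cilia, fell from 1092, 1127 and 1111 to 714, 864 and 772 (-0.46 ± 0.08, adjusted p = 2.98e-05). PIK3C2B fell from 621, 614 and 487 to 443, 344 and 324 (-0.54 ± 0.10, adjusted p = 0.000147). Neither gene's groups overlapped, and the sum of the pair per kb went from 182 ± 8.00 to 125 ± 6.05.

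Of the class I genes, PIK3CA, the p110α catalytic subunit, counted 292, 325 and 292 reads in DMSO and 414, 415 and 417 with the drug. The drug libraries lay close together and above all DMSO libraries (0.37 ± 0.08, adjusted p = 0.000586). PIK3R1 went the other way, from 342, 339 and 357 to 261, 226 and 239, without overlap (-0.41 ± 0.07, adjusted p = 0.000101). PIK3CB (-0.07 ± 0.08), PIK3CD (0.03 ± 0.09), PIK3R2 (0.06 ± 0.08) and PIK3R3 (0.22 ± 0.09) did not pass the test. Exons of PIK3CA overlap those of KCNMB3 on the opposite strand over 35.8% of their length, and the strand setting of the counting is not given in the sources used here. KCNMB3 itself counted between 3.1 and 17.1 reads in any library. It was higher with methionase under the drug (0.28, adjusted p = 0.0222 by limma), at few reads and in groups that overlapped. These were 3.1 to 11.2 reads in vector and 9.9 to 17.1 in methionase cells. The part of opposite-strand reads in the PIK3CA values was not tested. Exons of MTMR3 overlap opposite-strand exons over 65.3% of their length, those of HORMAD2-AS1, which counted at most 3.4 reads, and of AC003681.1, which was not analysed here, so the reads of MTMR3 and of the latter cannot be told apart if counting ignored strand. A further 7 members overlap such exons over less than 20% of their length.

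OCRL, the 5-phosphatase mutated in Lowe syndrome, rose from 2172, 2271 and 2196 to 2916, 3059 and 2886 (0.40 ± 0.06, adjusted p = 2.01e-05). SYNJ1, which strips PI(4,5)P2 from endocytic vesicles, rose from 436 ± 23.7 to 558 ± 6.26 (0.31 ± 0.08) and INPPL1 from 3089.5 ± 52.0 to 3447 ± 155 (0.15 ± 0.05). INPP5E, the 5-phosphatase of cilia, did not pass the test (-0.11 ± 0.10). PI4K2A (0.27 ± 0.07), PI4KA (0.19 ± 0.07) and PIP5K1A (0.16 ± 0.06) rose, while PIP5K1C fell to 564, 547 and 570.1, without overlap (-0.53 ± 0.09, adjusted p = 7.62e-05). SACM1L was lower (-0.20 ± 0.06). PI4KB, PI4K2B, PIP5K1B, all 3 PI5P 4-kinases, INPP4A and the PIKFYVE complex genes PIKFYVE (-0.12 ± 0.07), FIG4 (0.13 ± 0.06) and VAC14 (0.15 ± 0.07) did not pass the test.

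Of the 18 calls, 12 held in each alternative fit and without each library in turn. SACM1L was lost without vector drug replicate 3 (adjusted p = 0.0600), PI4KA without that library (0.126) or vector DMSO replicate 3 (0.151), and MTM1, INPPL1, MTMR6 and PIP5K1A without 3, 4, 5 and 5 of the 6 libraries (adjusted p from 0.0605 to 0.220). With quantile normalization PIP5K1A (0.424), INPPL1 (0.402), PI4KA (0.338), MTM1 (0.0789) and MTMR6 (0.0568) missed the threshold, and the differences of PIP5K1A (0.07), INPPL1 (0.06) and PI4KA (0.08) shrank by over 1.5 times.

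**Figure D2:**
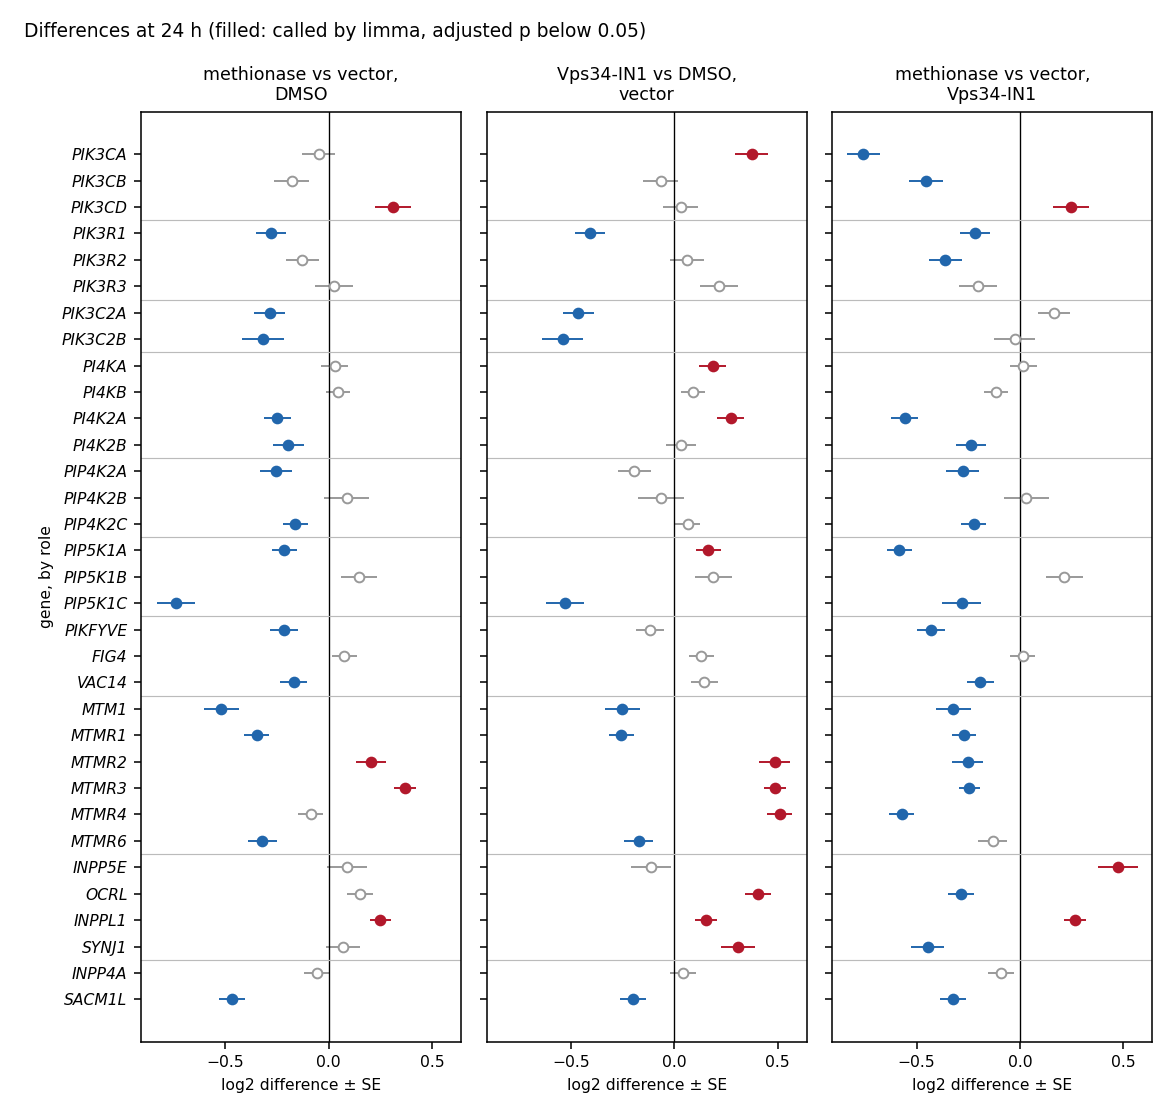
Log2 difference ± SE (x axis) of the 33 members (y axis, ordered by role) in 3 comparisons at 24 h, with filled points for genes called by limma at an adjusted p below 0.05 (red higher, blue lower). PIP5K1C is lower in all 3 panels, and PIK3CA, MTMR4 and SYNJ1 are higher with the drug in vector cells and lower with methionase under the drug. The left and middle panels share the vector DMSO libraries. The middle and right panels share the vector drug libraries, with opposite sign.

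In methionase cells the same drug comparison called 6 members, 1 higher and 5 lower, against 7.93% of all genes tested (2.95% higher and 4.98% lower). The 5 were 3 class I PI3K genes, PIKFYVE and PIP5K1A, and INPPL1 was higher. PIK3CA counted 287, 287 and 297 reads in DMSO and 211, 185 and 251 with the drug, without overlap and lower with the drug (-0.34 ± 0.08, adjusted p = 0.00989). PIK3CB, the p110β subunit, went from 404, 437 and 428 to 299, 322 and 329.5 (-0.34 ± 0.08, adjusted p = 0.0124) and PIK3R1 from 288, 255 and 273 to 179.5, 195 and 219.6 (-0.35 ± 0.07, adjusted p = 0.00443). In both genes all drug libraries lay below all DMSO libraries. PIKFYVE went from 633, 656 and 667 to 546, 469.7 and 492 (-0.33 ± 0.07, adjusted p = 0.00340) and PIP5K1A from 3322, 3530.2 and 3524 to 3234, 2950.0 and 2792 (-0.21 ± 0.06, adjusted p = 0.0397). INPPL1 went from 3649, 3746 and 3679 to 4278, 4260.0 and 3965 (0.17 ± 0.05, adjusted p = 0.0462). None of these 3 overlapped either. Groups without overlap were found for 10 members, against 19.6% of all genes tested. When only the 6 libraries compared were fitted, limma called 0 of the 33 members, against 6 with all 18 libraries, 15 at an unadjusted p below 0.05 and 6 with limma voom. With quantile normalization 0 members were higher and 6 lower, and with equal library medians 3 and 4. PIK3CA was also lost without methionase drug replicate 2 (adjusted p = 0.0587), PIP5K1A without 4 of the 6 libraries and INPPL1 without 5 (adjusted p from 0.0635 to 0.128).

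Whether the drug difference depended on methionase was tested by the interaction at 24 h, which was called for 11 members, 3 positive and 8 negative, against 21.8% of all genes tested (9.92% positive and 11.9% negative). PIK3CA had the most negative value, -0.71 ± 0.11 (adjusted p = 8.49e-05): the drug libraries were the highest of all groups in vector cells and the lowest in methionase cells. MTMR3 followed (-0.61 ± 0.07, adjusted p = 3.60e-06), at 1536, 1424 and 1532 reads in methionase cells with the drug, below the methionase libraries in DMSO. SYNJ1 (-0.52 ± 0.11, adjusted p = 0.00219) counted 421, 463 and 424 reads in vector DMSO, 557, 565 and 553 in vector drug, 450.2, 473 and 460.0 in methionase DMSO and 402, 319 and 454 in methionase drug libraries. The last group was the most spread. MTMR4 (-0.48 ± 0.09, adjusted p = 0.000265) counted 1492, 1407 and 1462 in methionase DMSO and 1410.4, 1417 and 1623 in methionase drug libraries, which overlapped. MTMR2 (-0.46 ± 0.10, adjusted p = 0.00280), at 1441, 1559.7 and 1781 in methionase drug libraries, OCRL (-0.44 ± 0.09), PIP5K1A (-0.37 ± 0.09) and PI4K2A (-0.31 ± 0.09) also had negative interactions.

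The 3 positive interactions were those of PIP5K1C (0.46 ± 0.13, adjusted p = 0.0143), PIK3C2A (0.45 ± 0.11, adjusted p = 0.00364) and INPP5E (0.38 ± 0.14, adjusted p = 0.0467). PIP5K1C counted 529, 473 and 353 and PIK3C2A 962, 799 and 904 reads in methionase drug libraries. In both genes these values overlapped those of methionase cells in DMSO, where PIK3C2A counted 858, 934 and 898. INPP5E counted 871, 812 and 906 in vector DMSO, 724, 817 and 834 in vector drug, 794, 960.2 and 1029.6 in methionase DMSO and 1332, 1119 and 965 in methionase drug libraries, with both methionase groups more spread than the vector groups. Its interaction was lost without each of 8 of the 12 libraries (adjusted p from 0.0527 to 0.155), that of PIP5K1C without methionase drug replicate 1 (0.0521), and that of PI4K2A with quantile normalization (0.0624). The other 8 held in every alternative fit and without every library.

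**Figure D3:**
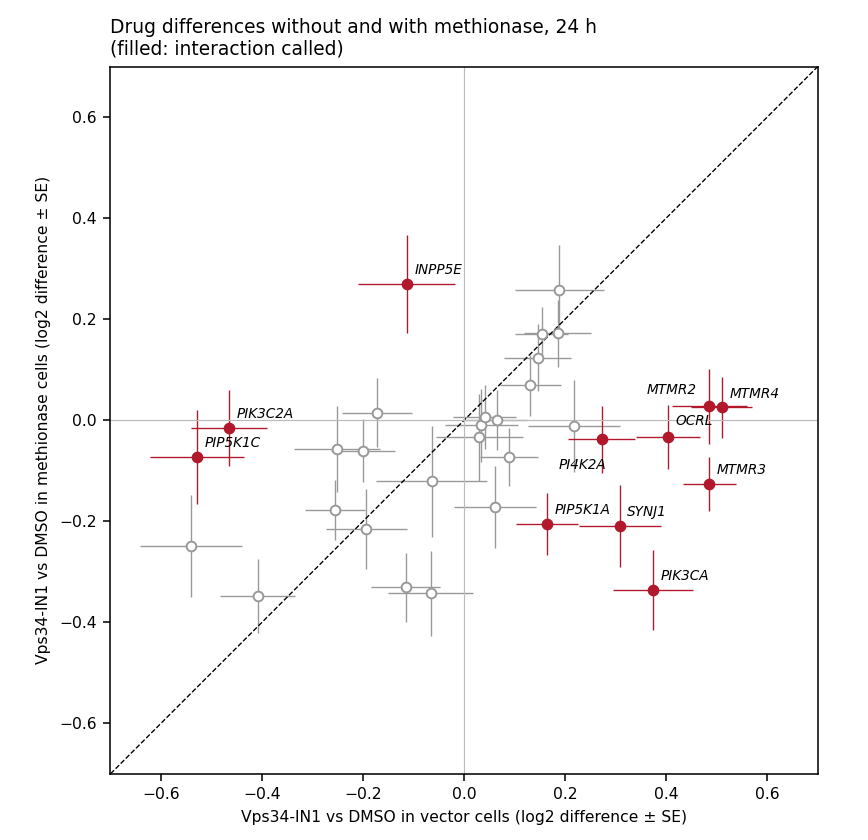
Log2 difference ± SE of Vps34-IN1 against DMSO in vector cells (x axis) and in methionase cells (y axis) for the 33 members at 24 h, with filled points where the methionase-by-drug interaction was called and a dashed line where both differences are equal. PIK3CA, PIP5K1A and SYNJ1 lie right of 0 and below 0, and the 3 myotubularins that rose in vector cells lie near or below 0 on the y axis.

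**Figure D4:**
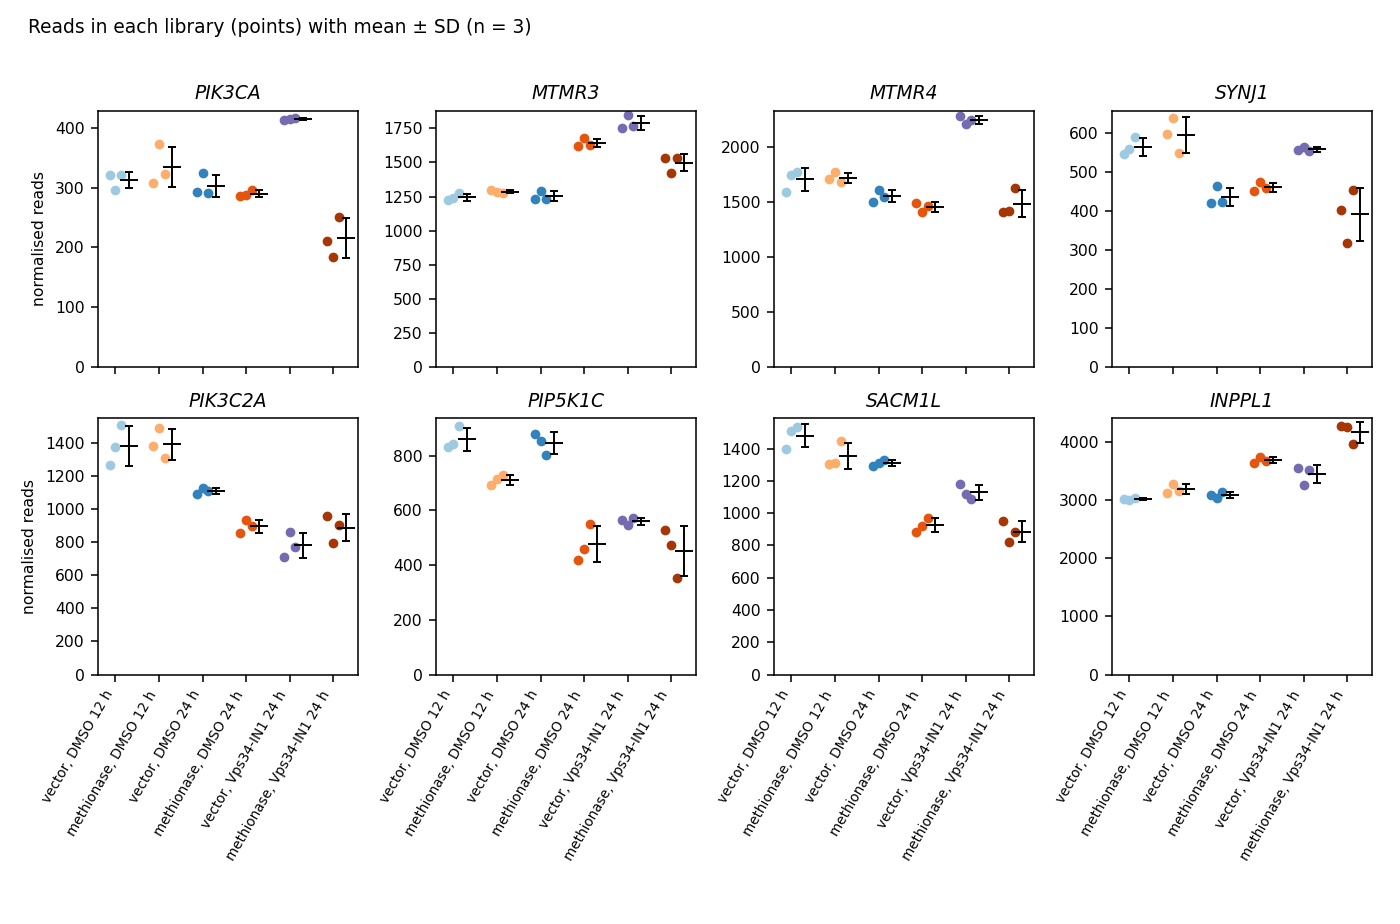
Normalised reads (y axis, from 0) of 8 members in each library (points) with mean ± SD (n = 3) for the 6 groups (x axis). PIK3CA, MTMR4 and SYNJ1 have their highest 24 h values in vector cells with the drug, and INPPL1 its highest in methionase cells with the drug.

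Under the drug, methionase against vector cells gave the largest number of called members, 23 of 33, with 3 higher and 20 lower, against 39.5% of all genes tested (17.3% higher and 22.2% lower). Its vector drug libraries also entered the drug comparison in vector cells, with opposite sign, and the interaction. A high level in those libraries therefore moves all of these values, which are not separate results. The median member difference was -0.24, beside 0.01 over all genes. The groups did not overlap in 20 members, against 44.6% of all genes tested. The lower members were PIK3CA, PIK3CB, PIK3R1 and PIK3R2 of class I, both type II PI 4-kinases, PIP5K1A and PIP5K1C, PIP4K2A and PIP4K2C, PIKFYVE and VAC14, 5 of the 6 myotubularins, OCRL, SYNJ1 and SACM1L. With quantile normalization 4 members were higher and 14 lower, and the median was -0.12.

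PIK3CA counted 414, 415 and 417 in vector and 211, 185 and 251 in methionase libraries and the groups lay far apart (-0.76 ± 0.08, adjusted p = 1.12e-07). PIK3CB went from 520.4, 464 and 412 to 299, 322 and 329.5 (-0.45 ± 0.08, adjusted p = 0.000150). PIK3CD went the other way, from 455, 406 and 402 to 559.9, 537 and 449, groups that overlapped (0.25 ± 0.09, adjusted p = 0.0263), and was lost without vector drug replicate 2 or 3 or methionase drug replicate 1 or 2 (adjusted p from 0.0811 to 0.123). PIK3R1 (-0.22 ± 0.07) and PIK3R2 (-0.36 ± 0.08) were lower, and PIK3R3 did not pass the test (-0.20 ± 0.09). The share of PIK3CD among class I catalytic reads per kb was 39.2% ± 0.724 in vector and 56.2% ± 4.64 in methionase cells with the drug, and 40.7% ± 2.33 and 49.7% ± 1.52 in DMSO. That of PIK3CA was 25.9% ± 1.76 and 15.8% ± 2.88 with the drug, and 20.1% ± 0.838 and 18.2% ± 0.116 in DMSO. The summed level of the 3 was 169 ± 11.2 per kb in vector and 145 ± 4.71 in methionase cells with the drug.

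**Figure D5:**
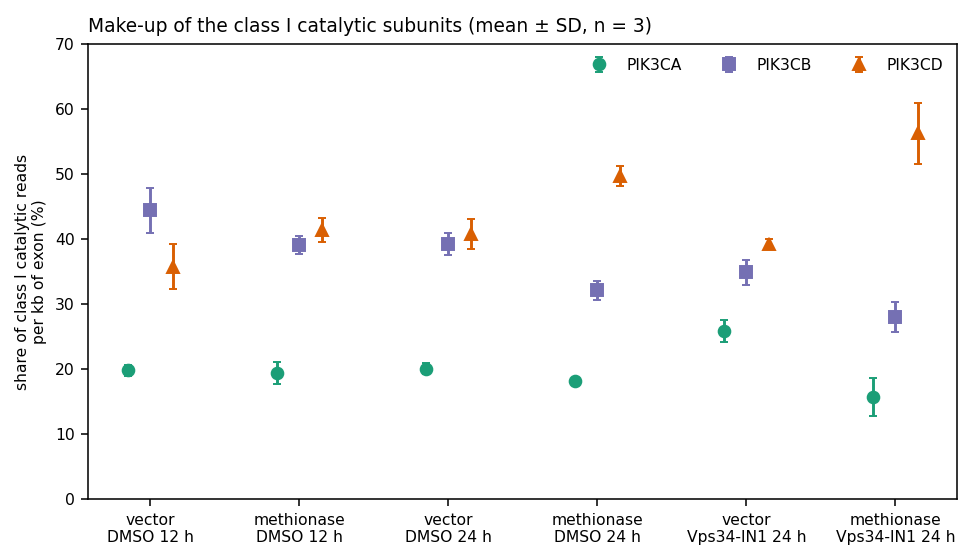
Share of PIK3CA, PIK3CB and PIK3CD (y axis, percent of their summed reads per kb of exon) in the 6 groups (x axis), mean ± SD of 3 libraries. PIK3CD takes 56.2% in methionase cells with the drug and 39.2% in vector cells with it, and PIK3CA 15.8% and 25.9%.

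Of the kinases that make PI(4,5)P2 and PI4P, PIP5K1A went from 4843, 4489 and 4246 in vector to 3234, 2950.0 and 2792 in methionase libraries under the drug (-0.58 ± 0.06, adjusted p = 1.16e-07). PI4K2A went from 1559, 1502 and 1475 to 957, 1112 and 938 (-0.56 ± 0.07, adjusted p = 5.52e-07). Neither gene's groups overlapped. PI4K2B (-0.24 ± 0.07), PIP4K2A (-0.28 ± 0.08), PIP4K2C (-0.22 ± 0.06) and PIP5K1C (-0.28 ± 0.09) were lower, and PI4KA, PI4KB, PIP4K2B and PIP5K1B did not pass the test. Of the myotubularins MTMR4 fell most, from 2276, 2203 and 2244 to 1410.4, 1417 and 1623 (-0.57 ± 0.06, adjusted p = 1.30e-07). MTM1 (-0.32 ± 0.08), MTMR1 (-0.27 ± 0.06), MTMR2 (-0.25 ± 0.07) and MTMR3 (-0.24 ± 0.05) were lower too, and MTMR6 did not pass the test (-0.13 ± 0.07).

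INPPL1 and INPP5E, the members listed as removing PI(3,4,5)P3, were both higher. INPPL1 went from 3558, 3269.8 and 3514 to 4278, 4260.0 and 3965 (0.27 ± 0.05, adjusted p = 0.000291) and INPP5E from 724, 817 and 834 to 1332, 1119 and 965 (0.47 ± 0.10, adjusted p = 0.000435), and neither overlapped. OCRL (-0.28 ± 0.06), SYNJ1 (-0.45 ± 0.08), SACM1L (-0.33 ± 0.06), PIKFYVE (-0.43 ± 0.07) and VAC14 (-0.19 ± 0.07) were lower, and FIG4 (0.01 ± 0.06), INPP4A (-0.09 ± 0.06), PIK3C2A (0.16 ± 0.08) and PIK3C2B (-0.03 ± 0.10) did not pass the test.

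Of the 23 calls, 14 held in every alternative fit and without every library. With quantile normalization PI4K2B, PIP4K2A, PIP4K2C, PIP5K1C, VAC14, MTMR2 and MTMR3 were not called (adjusted p from 0.0868 to 0.394), and the differences of all but PIP5K1C shrank to between -0.15 and -0.07. Without methionase drug replicate 1 neither PIK3R1 (0.108), VAC14 (0.0870) nor MTMR2 (0.0685) were called. Without vector drug replicate 1, PIK3R1 (0.101), PI4K2B (0.105, with a difference of -0.16), PIP4K2A (0.0790) and VAC14 (0.0811) were lost; without vector drug replicate 3, PIP5K1C (0.0516) and VAC14 (0.0720); without methionase drug replicate 2, PI4K2B (0.0739); and without methionase drug replicate 3, PIP4K2A (0.0547), PIP5K1C (0.167, with a difference of -0.14) and VAC14 (0.103).

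Between 12 h and 24 h, vector cells in DMSO differed in 6 members, all lower at 24 h, against 11.5% of all genes tested (4.61% higher and 6.88% lower). SYNJ1 counted 546, 558 and 590.1 reads at 12 h and 421, 463 and 424 at 24 h (-0.32 ± 0.08, adjusted p = 0.0127). PIK3C2A went from 1269, 1375 and 1511 to 1092, 1127 and 1111 (-0.30 ± 0.08, adjusted p = 0.0133) and PIKFYVE from 911, 937 and 988 to 736, 825 and 755 (-0.27 ± 0.07, adjusted p = 0.0130). In these 3 genes no 24 h library reached the 12 h libraries. Such a lack of overlap was found for 18 members, against 36.1% of all genes tested. The regulatory subunits PIK3R1 (406, 426 and 434 to 342, 339 and 357; -0.24 ± 0.07, adjusted p = 0.0385) and PIK3R3 (83.7, 78 and 81.6 to 57.4, 53.9 and 48.9; -0.32 ± 0.09, adjusted p = 0.0260) were lower without overlap, as was VAC14 (-0.23 ± 0.07). None of these calls held throughout: without vector 12 h replicate 3, or without vector 24 h replicate 1, limma called 0 members, against 15 at an unadjusted p below 0.05 and 6 by limma voom with all libraries. SYNJ1 then had an adjusted p = 0.0691 and 0.0665, and the count was 3 without vector 24 h replicate 2 or 3.

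The members were also grouped by the lipid they make or remove. The lists share genes, so they are not separate results. They need not hold every reaction of a product, and VAC14 is a scaffold and not an enzyme. The counts and sums are therefore not a balance of making and removing a lipid. The PI4P 5-kinases count as using up PI4P and as making PI(4,5)P2. INPP5E, OCRL and SYNJ1 count as making PI4P and as using up PI(4,5)P2, and INPP5E also as removing PI(3,4,5)P3. The class I catalytic subunits count as using up PI(4,5)P2 and as making PI(3,4,5)P3. Over all genes tested, 18.1% rose and 21.1% fell with methionase in DMSO, 20.2% rose and 19.9% fell with the drug in vector cells, and 17.3% rose and 22.2% fell with methionase under the drug, and nothing particular to a lipid is read from counts of so few genes. Of 4 genes whose products make PI3P (PIK3C2A, PIK3C2B, INPP4A and FIG4), 2 fell with methionase and 2 with the drug in vector cells, and 0 passed the test between methionase and vector cells under the drug. Of 8 genes whose products use up PI3P (the 6 myotubularins, PIKFYVE and its scaffold VAC14), 2 rose and 5 fell with methionase in DMSO, 3 rose and 3 fell with the drug in vector cells, and 7 fell with methionase under the drug. With quantile normalization PIKFYVE and VAC14 were not called in the first comparison, nor MTM1 and MTMR6 in the second. MTMR2, MTMR3 and VAC14 were then not called in the third. The summed level of the 8 genes per kb was 1210.1 ± 40.7 in vector DMSO, 1132 ± 43.0 in methionase DMSO, 1384 ± 39.5 in vector drug and 1096 ± 27.6 in methionase drug cells. The sum for the makers of PI3P was 502 ± 1.56, 476 ± 20.6, 473 ± 7.86 and 481 ± 20.5 in the same order. Within it the class II kinases gave 181.6, 144.4, 124.5 and 135.0, and the phosphatase FIG4 gave 243, 257, 268 and 271. INPP4A gave 77.85, 74.5, 80.29 and 74.87. The sum leaves out PIK3C3, the VPS34 gene, which was lower with methionase in DMSO and with the drug in vector cells. It therefore does not show that the kinases making PI3P kept their level.

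Of 7 genes whose products make PI4P, 2 fell with methionase in DMSO, 4 rose with the drug in vector cells, and 1 rose and 4 fell with methionase under the drug. Of the 4 that use up PI4P (SACM1L and the 3 PI4P 5-kinases), 3 fell with methionase in DMSO, 1 rose and 2 fell with the drug in vector cells, and 3 fell with methionase under the drug. Their summed level per kb was 1058 ± 4.35 in vector DMSO, 851 ± 33.4 in methionase DMSO, 1089 ± 64.6 in vector drug and 762 ± 57.7 in methionase drug cells, and that of the makers of PI4P 1917 ± 18.6, 1912 ± 37.8, 2193 ± 29.5 and 1933 ± 68.6.

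Of 6 genes whose products make PI(4,5)P2, 4 fell with methionase in DMSO, 1 rose (PIP5K1A) and 1 fell (PIP5K1C) with the drug in vector cells, and 4 fell with methionase under the drug, where 1 fell with quantile normalization. The sum per kb was 1465 ± 8.45 in vector DMSO, 1231 ± 26.5 in methionase DMSO, 1507 ± 78.9 in vector drug and 1118 ± 79.0 in methionase drug cells. Of the 6 that use up PI(4,5)P2 (INPP5E, OCRL, SYNJ1 and the class I catalytic subunits), 1 rose with methionase in DMSO, 3 rose with the drug in vector cells, and 2 rose and 4 fell with methionase under the drug, with sums of 711 ± 16.8, 776 ± 20.1, 848 ± 17.7 and 766 ± 40.0 in the same order. For PI(3,4,5)P3, 4 of the 6 class I subunits fell and 1 rose with methionase under the drug, while INPPL1 and INPP5E rose. The summed level of these 2 phosphatases was 607 ± 15.3, 709 ± 23.6, 651 ± 20.8 and 815 ± 53.2 in the same order, and that of the class I subunits 793 ± 44.7, 743 ± 27.4, 823 ± 39.6 and 654 ± 82.5. Most of the class I sum came from the regulatory subunit PIK3R2, at 594.58, 542.58, 621.1 and 483.54. The 3 catalytic subunits together gave 159.3, 167.8, 169.4 and 144.5. These sums are transcript levels and were not tested.

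Other genes of the pathway were read from 11 lists with 93 tested genes. Over all genes tested, 18.1% rose and 21.1% fell with methionase in DMSO, and 20.2% rose and 19.9% fell with the drug in vector cells. With methionase under the drug these shares were 17.3% and 22.2%. Nothing particular to a list is read from counts of so few genes. Of 16 tested readers of PI3P, 5 fell and 0 rose with methionase in DMSO, 6 rose and 2 fell with the drug in vector cells, and 7 fell and 0 rose with methionase under the drug. EEA1, the early endosome tether that binds PI3P, counted 380.4 ± 7.26 reads in vector DMSO, 607 ± 29.8 in vector drug and 370.1 ± 80.4 in methionase drug cells (0.58 ± 0.09 for the drug in vector cells, -0.62 ± 0.09 for methionase under the drug). Of 10 readers of PI4P and lipid exchange proteins, 7 fell and 1 rose with methionase both in DMSO and under the drug. CERT1, which carries ceramide to the Golgi and binds PI4P, was at 859 ± 61.7 reads in vector and 383 ± 34.7 in methionase cells with the drug (-1.02 ± 0.07, adjusted p = 2.92e-10), and the PI4P-binding PLEKHA3 differed by -0.81 ± 0.09. In the class 3 PI3K complex, PIK3C3, which encodes VPS34, went from 684 ± 23.1 in vector DMSO to 412 ± 11.6 with methionase (-0.63 ± 0.06, adjusted p = 3.20e-08) and 491 ± 30.4 with the drug (-0.42 ± 0.06, adjusted p = 8.67e-06).

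For the counts that follow, the shares of all genes called were 39.2% with methionase in DMSO and 40.1% with the drug in vector cells. With methionase under the drug the share was 39.5%. The scaffold that holds PI4KA at the plasma membrane had 6 tested genes, of which 2 rose and 2 fell with methionase in DMSO. Its membrane anchor EFR3A went from 698 ± 52.2 to 294 ± 18 reads (-1.05 ± 0.08, adjusted p = 1.13e-09), while PI4KA itself did not pass the test. Of 7 adaptors and regulators of class I PI3K, 1 rose and 2 fell with methionase in DMSO, and 4 rose and 1 fell with the drug in vector cells. The 7 include the inhibitor PIK3IP1, at 65.6 ± 10.2 reads in vector DMSO and 91.8 ± 8.75 in vector drug cells. IRS2 (-0.28 ± 0.08) and IRS4 (-0.24 ± 0.09), which link insulin and growth factor receptors to PI3K, fell with methionase, and with the drug IRS4 rose (0.65 ± 0.09) and IRS1 fell (-0.49 ± 0.08). The adaptor GAB2 rose with methionase (adjusted p = 1.56e-08) and with the drug in vector cells (adjusted p = 3.13e-07), from 305 ± 9.67 to 691 ± 84.7 and 594 ± 56.5 reads. Of 8 genes that act downstream of PI(3,4,5)P3, including the AKT phosphatases PHLPP1 and PHLPP2, 3 fell and 0 rose with methionase in DMSO. PDPK1, the kinase that activates AKT, went from 1062 ± 40.0 to 649 ± 47.4 (-0.65 ± 0.06, adjusted p = 2.29e-08). MAPKAP1 (-0.357 ± 0.0568) and the phosphatase PHLPP2 (-0.395 ± 0.0792) were the others. Of 6 catalytically inactive myotubularins, which pair with active members, 1 rose and 3 fell with methionase in DMSO, and 1 rose and 4 fell under the drug, among them MTMR12, the partner of MTM1 (-0.55 ± 0.07 in DMSO and -0.73 ± 0.07 under the drug). Of 14 tested further phosphoinositide kinases and phosphatases, 1 rose and 4 fell with methionase in DMSO, and 1 rose (PIP4P1, 0.28 ± 0.09) and 3 fell with the drug in vector cells. The SHIP1 gene INPP5D went from 204 ± 40.1 to 87.7 ± 10.3 with the drug in vector cells (-0.79 ± 0.10). Its vector DMSO level was 98.2 ± 9.35 at 12 h, below that at 24 h (0.70 ± 0.10, adjusted p = 0.000109).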

How the data were processed

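Poly-A RNA of 18 HEK293T libraries was prepared with oligo dT selection and dUTP second strands and sequenced on a DNBSEQ-G400, per the labels' protocols. The authors deposited 1 table of variance-stabilised log2 values. The submitters' processing notes name STAR 2.7.10b, featureCounts, DESeq2, limma and hg38, without their roles. The gene annotation and the strand setting of the counting are not given in the sources used here.

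Inverting the transformation gave back whole reads, within 0.01 of a whole number for 100% of values, from which normalised reads and totals (18278586 to 20825232 per library, size factors 0.892 to 1.098) were taken. The table has 37097 lines, and 1 without a gene name, with at most 0.0022% of reads, was left out. No libraries were duplicates. Genes with a mean at least 0.5 above the lowest value (5.4487) were tested with limma 3.58.1 in R 4.3.3 on the log2 values, with 1 mean per group over all 18 libraries and a variance trend. Tests were two-sided, Benjamini-Hochberg adjusted over 17755 genes and called below 0.05, with no correction over the 8 comparisons. Fits were tested on simulated data with 50 genes changed at each fold, fewer genes than were called in the data. For methionase against vector at 24 h in DMSO, 32% of 1.2-fold and 98% of 1.5-fold changes were recovered. For the interaction with the drug these shares were 8% and 80%. Differences near 1.2-fold can therefore be missed. Reads per kb used exon lengths of GENCODE 29 on GRCh38, and promoters came from RefSeq.

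For each comparison the called members with the largest log2 differences, up to 5 in each direction, were given with every library's value, and of each list of other pathway genes up to 3 called genes with the lowest adjusted p were eligible to be named. PIK3C3, the gene of the drug's target, was named in addition. The members and lists were chosen with earlier results of these data known. Alternatives were no filter, a stricter filter, quantile normalization, equal library medians, no variance trend, only the groups compared, a replicate block, limma voom on the recovered reads, and leaving out each library. 1 marker gene is not reported here.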

Additional observations from a re-analysis of the deposited data

Results flagged for a closer look

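An interaction test, which asks whether an effect differs between 2 groups of cells, picked 15 results. Values are limma log2 interactions with Benjamini-Hochberg adjusted p below 0.05 over all genes tested, and no explanation was tested. The effect of Vps34-IN1 was more negative in methionase than in vector cells for PIK3CA (-0.709), MTMR3 (-0.612), SYNJ1 (-0.517), MTMR4 (-0.484), MTMR2 (-0.457), OCRL (-0.436), PIP5K1A (-0.37) and PI4K2A (-0.31). It was more positive for PIP5K1C (0.456), PIK3C2A (0.45) and INPP5E (0.383). The effect of methionase was more negative at 24 h than at 12 h for PIP5K1C (-0.491), MTM1 (-0.374) and SACM1L (-0.342), and more positive for MTMR3 (0.325).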

How the results depend on the processing

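Of 87 calls of members in the 8 comparisons, 49 held in all 8 alternative fits and without each library in turn, 32 were lost under at least 1 fit, 32 without at least 1 library, and 0 changed direction. The counts of called members that moved most were those with few calls. At 12 h, methionase against vector gave 0 members, 3 when only those groups were fitted, and 0 to 1 without a library. The drug in methionase cells gave 6 members, 0 when only those groups were fitted, and 4 to 8 without a library. Vector cells at 24 h against 12 h gave 6 members, 3 with no filter, 10 when only those groups were fitted, and 0 to 4 without a library. Without a library, methionase at 24 h in DMSO gave 14 to 17 members, the drug in vector cells 14 to 17, methionase under the drug 20 to 23, the interaction with the drug 9 to 12 and the interaction with time 3 to 4.

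Over all genes, methionase at 12 h called 385 genes, 178 with no filter, 185 with quantile normalization, 247 without a variance trend, 1561 when only those groups were fitted, and 18 to 238 without a library. The drug in methionase cells called 1408 genes, 296 when only those groups were fitted, and 860 to 1526 without a library. Vector cells at 24 h against 12 h called 2039, 1290 with no filter, 3507 when only those groups were fitted, and 798 to 1696 without a library. The interaction with time called 2071, and 1276 to 2413 without a library. The cause of these shifts was not tested.

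Libraries of different groups share replicate numbers in the labels. The deviations of same-numbered libraries from their group means had correlations of -0.308 to 0.352 (median 0.014, 45 pairs), and those of other numbers -0.415 to 0.358 (median -0.01, 90 pairs), so the numbers do not show a pairing. With the replicate block the called members were 0, 19, 17, 4, 23, 5, 10 and 3, for methionase at 12 h, methionase at 24 h, the drug in vector cells, the drug in methionase cells, methionase under the drug, vector time, the interaction with the drug and the interaction with time. The depth limits PIP4K2B most, at 4.1 to 19.7 normalised reads.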
